A study of Mus musculus with 12 samples.

Results

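The SOX family was followed in thymus and T cell lymphoma of mice of 4 genotypes through 8 genes, Sox4, Sox5, Sox6, Sox8, Sox9, Sox10, Sox12 and Sox13. These genes were selected on their expression in the same 12 libraries, so their levels and differences are a description and carry no test. They are 8 of 50600 gene rows counted, and 12 other mouse SOX genes serve as their comparison. Poly(A) RNA of 12 mice was sequenced, 3 per group. Ctrl mice carried DNMT1 fl/fl without Cre and gave thymocytes at 20 to 25 wk. KO mice carried DNMT1 fl/fl and CD4-CRE and gave thymocytes at 20 to 21 wk. ALK mice carried the NPM-ALK transgene and gave T cell lymphoma cells at 22 to 31 wk. ALKKO mice carried NPM-ALK, DNMT1 fl/fl and CD4-CRE and gave thymocytes at 19 to 25 wk. NPM-ALK is a human fusion kinase driven by the Cd4 enhancer and promoter, and Cd4-Cre removes Dnmt1 from the stage at which that element is active. The labels call the samples thymocytes or lymphoma cells, but RNA was taken from homogenized tissue, and markers of thymic epithelium, adipocytes and other cells were counted in it. Each library is a separate mouse of a mixed genetic background, and only the second KO mouse (KO2) is female.

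SOX proteins bind the minor groove of DNA through a high mobility group (HMG) box and bend it, and they act together with partner factors. Sox4 and Sox12 belong to the SOXC group, Sox5, Sox6 and Sox13 to SOXD, and Sox8, Sox9 and Sox10 to SOXE. Sox4 is needed for early lymphocyte development, and Sox13 is known for its part in the gamma delta T-cell lineage. SOXE factors are known from neural crest, glia, melanocytes and cartilage, where Sox9 works with Sox5 and Sox6.

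Between 12473857 and 18864327 reads per library were assigned to genes. Dnmt1 was 400 to 487 CPM (read counts scaled to library size by edgeR's TMM method) in Ctrl, 378 to 787 CPM in ALK and 205 to 244 CPM in the 6 KO and ALKKO libraries. Alk was 34.8 to 54.9 CPM in the 6 libraries with the transgene and at most 0.431 CPM in the other 6. KO2 stood apart. Its 5 B-cell markers summed to 1831 CPM, against 40.4 to 81.5 CPM in the other 8 thymus libraries. Its 12 T-cell and double-positive thymocyte markers summed to 4089 CPM, against 8788 to 11911 CPM there and 3783 to 5284 CPM in ALK. Rag1, 1 of these markers, was listed at 0 in every library. Values that rest on KO2 are given with and without it.

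Sox4 was by far the most abundant SOX gene of the thymus. Sox8 and Sox6 were high in 2 tumors (ALK2 and ALK3) and not in the other (ALK1). Sox9 was lower in all 3 tumors than in any Ctrl thymus. Sox12 was highest in ALK1 and Sox13 in ALK3. In ALKKO thymocytes, which carry the same transgene, Sox8 was at most 1.08 CPM and Sox6 at most 17.3 CPM.

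**Figure D1:**
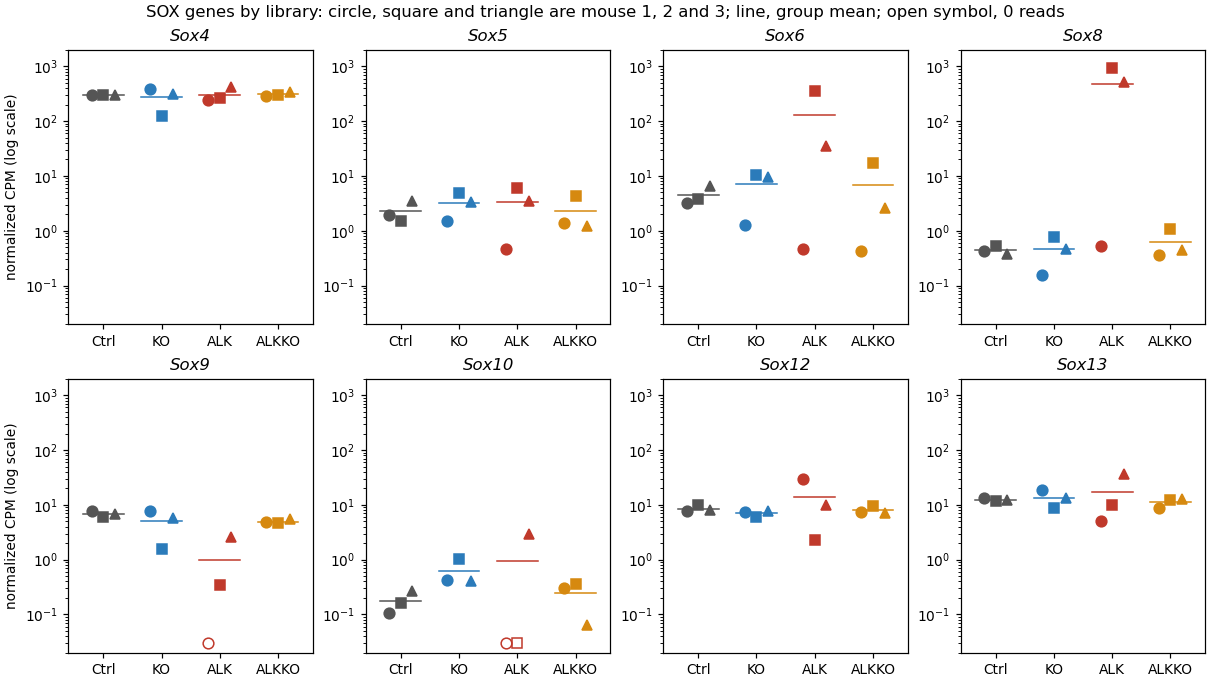
Normalized CPM (log axis) of each SOX gene in the 12 libraries, by group, with the group mean as a line and libraries with 0 reads as open symbols at the bottom. Sox8 sits at 929 and 524 CPM in ALK2 and ALK3 and at most 1.08 CPM in the other 10 libraries, while Sox4 sits between 124 and 413 CPM in all 12.

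Of the 8 genes, 7 passed the low-count filter and Sox10 did not. In ALK against Ctrl, 1 of the 7 was called (adjusted p under 0.05 and absolute log2 fold change above 1), where 20.4% of all 16052 genes tested were. In ALK against ALKKO 1 of the 7 was called, against 19.6% of all genes. Sox8 was the gene called in both. None of the 7 was called in KO against Ctrl (0.0187% of all genes), ALKKO against Ctrl (0.181%) or ALKKO against KO (0.00623%). The genes were chosen on these contrasts, so nothing is read from the counts. The median log2 fold change of the 7 genes was 0.51 in ALK against Ctrl, beside 0.05 for all genes tested, and 0.58 in ALK against ALKKO, beside 0.03. It was -0.03 in each of the 3 comparisons without tumors, beside 0.04, 0.01 and -0.02. The values of the groups did not overlap for 1 gene that was higher and 1 that was lower of the 7 in ALK against Ctrl, where 46.3% of all genes did not overlap.

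**Figure D2:**
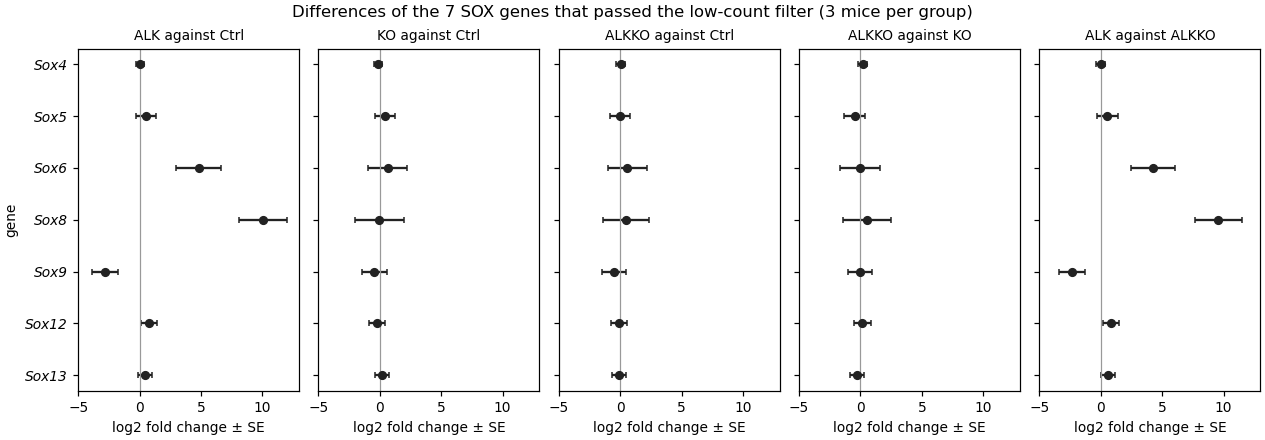
Log2 fold change with its SE (horizontal bars, 3 mice per group) for the 7 SOX genes that passed the filter, in 5 comparisons. Sox8, Sox6 and Sox9 lie away from 0 in the comparisons with tumors, and the error bar of every gene crosses 0 in the 3 comparisons among thymocytes. Each SE rests on a spread fitted over all 12 libraries, tumors included. The bars among thymocytes therefore do not show the spread of the thymus mice alone.

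Sox4, a SOXC activator of early B- and T-cell development, lies on chromosome 13 (28948919 to 28953713 of GRCm38, minus strand). It was 302, 300.3 and 305 CPM in the Ctrl mice and 284, 302 and 341 CPM in ALKKO. KO gave 382, 124 and 319 CPM, with KO2 the lowest of all 12 libraries. The tumors had 239, 264 and 413 CPM. The Ctrl values were within 1.01 times of each other, so every tumor lay outside their range, ALK1 and ALK2 below and ALK3 above. The group means were close (302 ± 2.11 CPM in Ctrl and 305 ± 94.0 in ALK, SD, n = 3), with a log2 fold change of 0.01 (SE 0.34). Without KO2 the KO mean moved from 275 to 351 CPM.

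Sox12, the other SOXC member (chromosome 2, 152393611 to 152398063, minus strand), differed 13.2-fold between the highest and the lowest tumor. It was 7.71, 9.75 and 7.92 CPM in Ctrl, 7.52, 5.93 and 7.73 CPM in KO and 7.32, 9.38 and 7.08 CPM in ALKKO. ALK1 had 29.9 CPM, 3.54 times the Ctrl mean. ALK2 had 2.26 CPM, 3.73-fold below it, and ALK3 had 10.1 CPM, just above the highest Ctrl mouse. The thymus groups overlapped and the tumors lay on both sides of them. The log2 fold change in ALK was 0.74 (SE 0.65), and it was -0.45 without ALK1.

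Sox8, a SOXE gene known from glia, cartilage and testis (chromosome 17, 25565892 to 25570686, minus strand), was close to silent in the thymus. It had 8, 10 and 7 reads in Ctrl (0.422, 0.536 and 0.377 CPM), 3, 9 and 7 reads in KO and 6, 18 and 7 reads in ALKKO. ALK1 had 8 reads (0.537 CPM), ALK2 10670 reads (929 CPM) and ALK3 6719 reads (524 CPM). ALK2 and ALK3 were 2089 and 1179 times the Ctrl mean of 0.445 CPM, and ALK1 was 1.21 times that mean. ALK1 exceeded the highest Ctrl mouse by less than the worth of 1 read, so the lack of overlap between ALK and Ctrl rests on the other 2 tumors. The fitted log2 fold change was 10.07 (SE 1.94) against Ctrl and 9.57 (SE 1.89) against ALKKO. Sox8 passed the low-count filter through 4 libraries, KO2, ALK2, ALK3 and ALKKO2. It was left out when only ALK and Ctrl were fitted.

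A long noncoding gene, 2810468N07Rik (25570358 to 25575043, plus strand), overlaps the start of Sox8 on the opposite strand and shares 329 exonic bases with it. It was picked for its position, with its values known. It had 210 CPM in ALK2, 203 CPM in ALK3 and 1.07 CPM in ALK1, against 0.107 to 2.15 CPM in the 9 thymus libraries. The libraries marked strand, but the strand setting of the counting is not given in the sources used here, so part of either count could belong to the other gene. Lmf1, whose product matures lipases, begins 8.4 kb to the right of Sox8. It was 38.2, 105 and 70.6 CPM in the tumors and 25.6 to 29.0 CPM in Ctrl (log2 fold change 1.38, SE 0.28, adjusted p = 0.00585). Adjusted p are Benjamini-Hochberg values over all genes tested, from the quasi-likelihood test of edgeR. On the left, Cacna1h, 132.1 kb away, was 3.69, 3.05 and 1.56 CPM in the tumors and 1.08 to 2.53 CPM in Ctrl. The highest values of the antisense gene and of Lmf1 were thus in the same 2 tumors as those of Sox8.

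Sequences before the transcription start were taken from RefSeq (GRCm38.p6), whose table matched 6 of the 8 genes. Sox9 and Sox10 were not matched. Stretches that the annotation counts as exon of the SOX gene itself are left out. The run thus ends 52 bases before the RefSeq start in Sox6 and 17 bases before it in Sox12. The stretches for Sox8 and Sox6 are shown because both genes were high in the same tumors, and that of Sox12 because it holds the most CpG and was expressed in every library. Each runs 5′ to 3′ on the minus strand, and capitals mark CpG, the dinucleotide whose methylation DNMT1 copies at replication.
Sox8, chr17:25570687-25570936: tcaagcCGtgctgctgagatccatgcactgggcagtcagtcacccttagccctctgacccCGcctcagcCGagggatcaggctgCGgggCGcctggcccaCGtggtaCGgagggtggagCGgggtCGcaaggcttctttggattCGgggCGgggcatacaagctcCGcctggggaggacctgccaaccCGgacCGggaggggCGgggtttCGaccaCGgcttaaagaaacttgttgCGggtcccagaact
Sox6, first start, chr7:116038797-116038994: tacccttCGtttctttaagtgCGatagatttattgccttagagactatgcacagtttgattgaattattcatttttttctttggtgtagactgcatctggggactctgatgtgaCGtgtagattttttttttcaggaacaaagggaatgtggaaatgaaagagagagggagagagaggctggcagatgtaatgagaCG
Sox12, chr2:152398064-152398296: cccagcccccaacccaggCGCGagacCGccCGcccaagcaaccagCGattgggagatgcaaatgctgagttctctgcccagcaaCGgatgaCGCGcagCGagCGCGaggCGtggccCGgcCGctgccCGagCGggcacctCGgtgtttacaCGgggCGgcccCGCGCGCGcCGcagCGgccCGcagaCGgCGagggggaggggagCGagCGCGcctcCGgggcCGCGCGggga
The 250 bases before the start held 35 CpG in Sox12, 31 in Sox13, 18 in Sox8, 11 in Sox4, 9 at the first start of Sox6 and 3 in Sox5, where the median of all 32851 promoters in the table was 6. Of the 9 CpG of Sox6, 4 lie in the run shown. Fewer CpG than in Sox12 were found in 97.0% of those promoters, and fewer than in Sox8 in 78.3%. All 250 bases before Sox8 are exonic in the antisense gene. Motifs were searched on both strands of the full 250 bases, and distances are counted to the RefSeq start. CACGTG, the E-box bound by MYC and MITF, occurred once, 152 bases before the Sox8 start, and in 6.02% of all promoters. TTCNNNGAA, the letters bound by STAT factors, occurred before Sox13 and before 2 of the 6 starts of Sox6, and in 7.02% of all promoters. ACAAAG, a core that SOX and TCF proteins bind, occurred 113 bases before the first start of Sox6, in 5 of its 6 starts and in 16.5% of all promoters. ACAAT, another SOX core, occurred before Sox5 and 3 of the starts of Sox6, and in 27.7% of all promoters.

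Sox6, a SOXD partner of Sox9 in cartilage and a regulator of erythroid cells (chromosome 7, 115470872 to 116038796, minus strand), had the widest range after Sox8. ALK2 had 349 CPM and ALK3 35.4 CPM, 77.1 and 7.80 times the Ctrl mean of 4.53 CPM. ALK1 had 0.470 CPM, 9.65-fold below that mean. Ctrl had 3.27, 3.80 and 6.52 CPM, KO 1.27, 10.4 and 9.48 CPM and ALKKO 0.423, 17.3 and 2.62 CPM. The tumors thus lay on both sides of Ctrl and KO, ALK1 lay just above the lowest ALKKO mouse, and the thymus groups overlapped. The log2 fold change in ALK was 4.82 (SE 1.82) against Ctrl and 4.24 (SE 1.77) against ALKKO. Without ALK2 it was 1.96 against Ctrl.

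In the thymus the level of Sox6 moved with that of adipocyte markers and, with more exceptions, with fibroblast and erythroid markers. The 5 adipocyte markers summed to 395 to 905 CPM in Ctrl, 85.0, 1147 and 779 CPM in KO and 30.8, 1270 and 321 CPM in ALKKO, and none was at 0 in the thymus. The 6 erythroid markers summed to 387.4 to 584 CPM in Ctrl. In KO their sums were 253, 2422 and 1667 CPM. In ALKKO they were 150, 1905 and 1843 CPM, with 1 marker at 0 in ALKKO1. The 8 fibroblast markers summed to 319, 222 and 396 CPM in Ctrl. In KO they gave 175, 899 and 499 CPM and in ALKKO 211, 907 and 278 CPM, with none at 0. KO1 and ALKKO1, the thymus libraries lowest in Sox6, were also the lowest for all 3 lists, and ALKKO2, the highest in Sox6, was highest for adipocyte and fibroblast markers and second for erythroid markers. ALKKO3 went the other way, with Sox6 below every Ctrl mouse and an erythroid sum above all of them. Their part in the Sox6 level of the thymus was not tested. In the tumors the adipocyte markers summed to 60.6, 1.31 and 1.09 CPM, with 2 of the 5 at 0 in ALK3, and the erythroid markers to 201, 27.3 and 749 CPM, with 1 of the 6 at 0 in ALK1. The fibroblast markers summed to 2524, 1550 and 1001 CPM there, above every thymus library and highest in ALK1, the tumor without high Sox6. Of these 8 markers, 4 were called higher in ALK against Ctrl, 0 lower and 4 not, beside 20.4% of all genes called. Dcn, named after its values were seen, went the other way, with 22.9 to 45.6 CPM in ALK and 83.1 to 134 CPM in Ctrl. Adipocyte markers were thus at their lowest in ALK2 and ALK3, the libraries where Sox6 was highest, and erythroid markers at their lowest in ALK2. In bulk RNA, fewer cells of a type and less RNA per cell cannot be told apart.

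Sox5, the closest relative of Sox6 (chromosome 6, 143828425 to 144781977, minus strand), stayed low. Ctrl had 1.95, 1.4995 and 3.55 CPM, KO 1.48, 4.81 and 3.29 CPM and ALKKO 1.39, 4.24 and 1.21 CPM. The tumors had 0.470, 6.01 and 3.51 CPM, with ALK1 the lowest and ALK2 the highest of the 12 libraries. All groups overlapped. The log2 fold change in ALK was 0.51 (SE 0.83), and its sign turned without ALK2 (-0.26).

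Sox13, the last SOXD member (chromosome 1, 133382303 to 133424377, minus strand), was 13.1, 11.6 and 12.2 CPM in Ctrl and 19.0, 8.76 and 13.1 CPM in KO. ALKKO had 8.83, 12.4 and 13.01 CPM. The tumors had 5.17, 10.015 and 35.9 CPM, with ALK3 at 2.92 times the Ctrl mean and ALK1 2.38-fold below it. ALK1 and ALK2 lay below every Ctrl mouse and ALK3 above. The log2 fold change was 0.47 (SE 0.58), and without ALK3 it was -0.71.

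Sox9, the SOXE regulator of cartilage and of several epithelia (chromosome 11, 112782224 to 112787760, plus strand), was 7.81, 5.94 and 6.79 CPM in Ctrl. ALK1 had 0 reads, which allows up to 0.201 CPM by counting error alone. ALK2 had 4 reads (0.348 CPM) and ALK3 33 reads (2.58 CPM). ALK1 was at least 34.0-fold, ALK2 19.7-fold and ALK3 2.66-fold below the Ctrl mean of 6.85 CPM. KO had 7.89, 1.55 and 5.65 CPM and ALKKO 4.78, 4.66 and 5.42 CPM. The tumors did not overlap with Ctrl or with ALKKO (43.1% of all genes did not overlap in ALK against ALKKO). Every ALKKO mouse also lay below every Ctrl mouse, as groups did not overlap for 17.5% of all genes in that comparison. The log2 fold change was -2.81 (SE 1.07) in ALK against Ctrl, -2.34 (SE 1.06) against ALKKO and -0.47 (SE 0.98) in ALKKO against Ctrl. Without KO2 the KO mean moved from 5.03 to 6.77 CPM.

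The level of Sox9 moved with the summed level of thymic epithelial markers across all groups. Their 11 markers summed to 2028 to 2297 CPM in Ctrl, 1341 to 1576 CPM in ALKKO, 2118, 218 and 1829 CPM in KO and 38.4, 119 and 335 CPM in ALK, and no marker was at 0 in any library. The 4 libraries with the lowest Sox9, the tumors and KO2, were the 4 with the lowest sums. Of the 11 markers, 6 were called lower in ALK against Ctrl and 0 higher, beside 20.4% of all genes called. The markers did not all follow the sum. Krt14 reached 84.1 CPM and Cldn4 46.6 CPM in a tumor, above the highest Ctrl mouse (39.4 and 34.4 CPM). Their medians in ALK were 11.9 and 3.02 CPM, below the lowest Ctrl mouse (31.3 and 25.1 CPM). Krt14 and Cldn4 were named after their values were seen. The part of thymic epithelial cells in the difference of Sox9 was not tested.

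**Figure D3:**
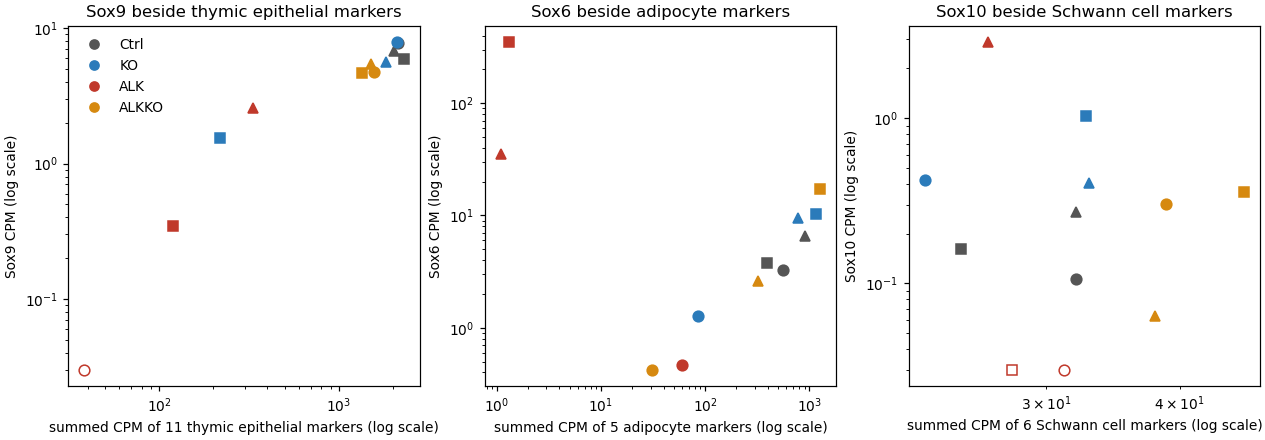
Sox9, Sox6 and Sox10 (CPM, log axes) against the summed CPM of marker lists for thymic epithelium, adipocytes and Schwann cells, 1 point per library, with circle, square and triangle for mouse 1, 2 and 3, color for the group and open symbols for 0 reads. The 3 tumors and KO2 are the 4 lowest libraries on both axes for Sox9, ALK2 and ALK3 are high in Sox6 at adipocyte sums of 1.31 and 1.09 CPM, and Sox10 is highest in ALK3 at a Schwann cell sum of 26.5 CPM.

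Sox10, the SOXE factor of neural crest, Schwann cells and melanocytes (chromosome 15, 79154908 to 79165240, minus strand), was counted at the limit of detection. Ctrl had 2, 3 and 5 reads, KO 8, 12 and 6, and ALKKO 5, 6 and 1. ALK1 and ALK2 had 0 reads, which allows up to 0.201 and 0.261 CPM, and ALK3 had 37 reads (2.89 CPM). ALK3 was the highest library and lay at 16.2 times the Ctrl mean of 0.179 CPM. The 3 KO mice (0.403 to 1.03 CPM) lay above all Ctrl mice (0.106 to 0.269 CPM) and above all ALKKO mice (0.0638 to 0.358 CPM). No overlap was found for 12.4% of all genes in KO against Ctrl and for 6.37% in ALKKO against KO. Without KO2 the KO mean of Sox10 moved from 0.619 to 0.413 CPM. Having failed the low-count filter, it was not fitted. Schwann cell markers, 6 genes, had sums of 25.0 to 32.0 CPM in Ctrl. In KO they lay between 23.1 and 32.9 CPM. Their sum was 26.5 to 31.1 CPM in ALK and 38.0 to 46.0 CPM in ALKKO. In ALK1 and ALK2 1 of the 6 was at 0, and in ALK3, which had the most Sox10 reads, the sum was the lowest of the tumors.

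Levels of different genes were compared per kilobase of annotated exons. In Ctrl the order of mean CPM per kilobase was Sox4 (63.1), Sox13 (2.86), Sox12 (1.90), Sox9 (1.66), Sox6 (0.305), Sox5 (0.162), Sox8 (0.143) and Sox10 (0.0585). Sox12 and Sox9 overlapped between mice, as did Sox6 with Sox5 and Sox5 with Sox8. In ALK the mean of Sox8 was 155 and that of Sox4 63.6 CPM per kilobase, followed by Sox6 with 8.66, Sox13 with 3.95 and Sox12 with 3.17. Sox10, Sox9 and Sox5 followed with 0.315, 0.236 and 0.232 CPM per kilobase. In ALK the ranges of all neighbours in this order overlapped, apart from Sox4 and Sox6. Of all reads on the 8 genes, Sox4 took 89.0% to 90.0% in Ctrl, 86.7% in ALK1, 16.9% in ALK2 and 40.2% in ALK3, and Sox8 took 59.5% in ALK2 and 51.0% in ALK3. These shares are of reads, in which longer genes count for more.

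**Figure D4:**
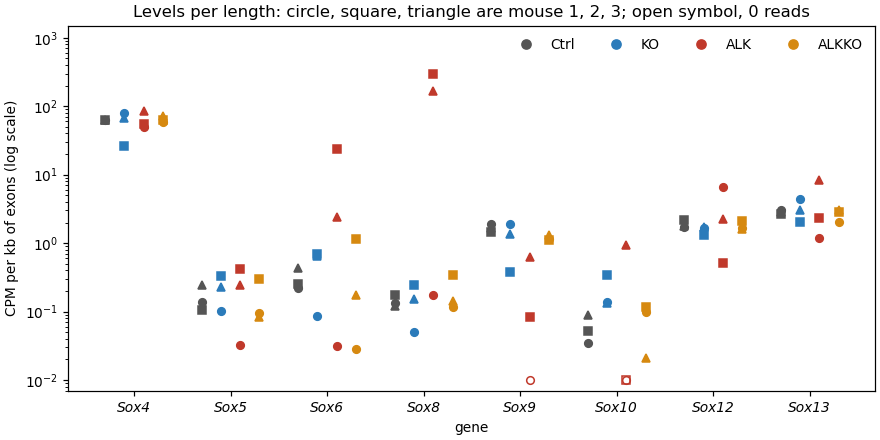
CPM per kilobase of exons (log axis) of the 8 SOX genes, 1 point per mouse, colored by group, with open symbols for 0 reads. Sox4 leads in the 9 thymus libraries and ALK1, and Sox8 lies above Sox4 in ALK2 and ALK3.

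Of the 12 other SOX genes, 3 passed the low-count filter and none of these was called in any comparison. The 3 genes, Sox7, Sox17 and Sox18, form the SOXF group of endothelium. Sox17 was 1.11 to 3.61 CPM in all 12 libraries. Sox18 was 1.66 to 4.09 CPM in Ctrl, 2.65 to 6.04 CPM in ALK and 19.9 CPM in KO2. Sox7 was 0.536 to 3.07 CPM in Ctrl, 0.805 to 1.74 CPM in ALK and 8.25 CPM in KO2. In ALK against Ctrl their log2 fold changes were 0.06 (SE 0.51) for Sox17, 0.77 (SE 0.76) for Sox18 and -0.45 (SE 0.77) for Sox7, with adjusted p of 0.942, 0.472 and 0.686 from edgeR. The 6 endothelial markers summed to 518 CPM in KO2 and 188 to 310 CPM in the other 11 libraries, and their part in the KO2 values was not tested. Sox21 reached 1.02 CPM in 1 Ctrl mouse and had 0, 1 and 0 reads in the tumors. Of the others, Sox1, Sox2, Sox14 and Sry had 0 reads in all libraries, and none of the 9 genes that failed the filter had over 19 reads in a library.

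Genes known as targets of SOX proteins in other tissues were counted from lists of textbook targets. Of 18 SOXE targets of glia and melanocytes, 14 were tested, and 4 were called higher and 0 lower in ALK against Ctrl, where 20.4% of all genes were called. Their median log2 fold change was 0.11, beside 0.05 for all genes. Gjb1, the gap junction protein of myelinating Schwann cells, was 0, 12.7 and 22.9 CPM in the tumors and at most 0.162 CPM in Ctrl (log2 fold change 7.23, SE 2.27, adjusted p = 0.0364 from edgeR). Its call was lost under 7 of 11 alternatives, among them leaving out any 1 Ctrl mouse, ALK2 or ALK3, with adjusted p of 0.00323 to 0.121. Mitf, the master regulator of melanocytes, was 8.12, 49.1 and 89.0 CPM in the tumors and 5.998 to 6.14 CPM in Ctrl (log2 fold change 3.001, SE 0.65, adjusted p = 0.00767 from edgeR). Cnp, which encodes a myelin enzyme, was 377, 1568 and 632 CPM in the tumors and 242 to 259 CPM in Ctrl (log2 fold change 1.77, SE 0.40, adjusted p = 0.00942 from edgeR). Its log2 fold change was 0.98, below the threshold, without ALK2, and its call was also lost in a fit of only ALK and Ctrl (adjusted p = 0.0546). Gjb1, Mitf and Cnp were each higher in ALK2 and ALK3 than in ALK1. The pigment genes Tyrp1, Dct and Pmel were at most 0.950 CPM in any library. S100b was 27.0 CPM in ALK3, the tumor with Sox10 reads, and at most 6.53 CPM elsewhere (log2 fold change 2.28, SE 1.86, adjusted p = 0.378 from edgeR). Tyrp1, Dct, Pmel and S100b were named after their values were seen.

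Against ALKKO, 3 of the 14 genes were called higher and 1 lower in ALK, where 19.6% of all genes were called. Mitf (log2 fold change 2.79, SE 0.65, adjusted p = 0.0107 from edgeR) and Cnp (1.71, SE 0.40, adjusted p = 0.0112) were among those higher. The call of Mitf was lost in a fit of only the 2 groups (adjusted p = 0.0586). That of Cnp was lost in such a fit and without ALK2, with adjusted p of 0.00039 to 0.0716 over the alternatives. The gene called lower was Cdh19, a cadherin of Schwann cells, which was 4.90, 1.61 and 2.42 CPM in ALKKO and at most 0.0780 CPM in ALK (adjusted p = 0.00155). In KO it lay between 1.55 and 3.03 CPM, and in Ctrl between 0.106 and 0.428 CPM, a difference that edgeR did not call. The Wald test of DESeq2 called Cdh19 higher in KO against Ctrl (adjusted p = 0.00518) and in ALKKO against Ctrl (adjusted p = 0.000329).

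Of 14 cartilage genes regulated by Sox9, Sox5 and Sox6, 8 were tested, and 2 were called higher and 1 lower in ALK both against Ctrl and against ALKKO, beside 20.4% and 19.6% of all genes called. Acan, which encodes the core protein aggrecan, was 60.4, 405 and 64.7 CPM in the tumors and 9.32 to 14.2 CPM in Ctrl (log2 fold change 3.96, SE 0.80, adjusted p = 0.00541 from edgeR). Col9a3, a chain of type IX collagen, was 12.3, 62.3 and 29.5 CPM in the tumors and 3.61 to 7.81 CPM in Ctrl (log2 fold change 2.52, SE 0.54, adjusted p = 0.00739 from edgeR). Both were highest in ALK2, where Sox6 was highest, and were also above every Ctrl mouse in ALK1, where Sox6 and Sox8 were low. Cnmd, which encodes chondromodulin, was 0.0671, 0 and 0.0780 CPM in the tumors and 0.589 to 1.003 CPM in Ctrl (log2 fold change -3.76, SE 0.81, adjusted p = 0.00722 from edgeR). Col2a1, the type II collagen gene and main target of Sox9, was too low to be tested, with 4.03, 0.523 and 3.67 CPM in the tumors and at most 0.592 CPM in the other libraries. It was named after its values were seen. The 8 fibroblast markers summed to 1001 to 2524 CPM in ALK and 222 to 396 CPM in Ctrl. Their sums were 175 to 899 CPM in KO, reached 907 CPM in ALKKO and were highest in ALK1. No fibroblast marker was at 0 in any library, but 1 of them, Dcn, was lower in every tumor than in any Ctrl mouse. The part of these cells in the matrix genes was not tested.

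**Figure D5:**
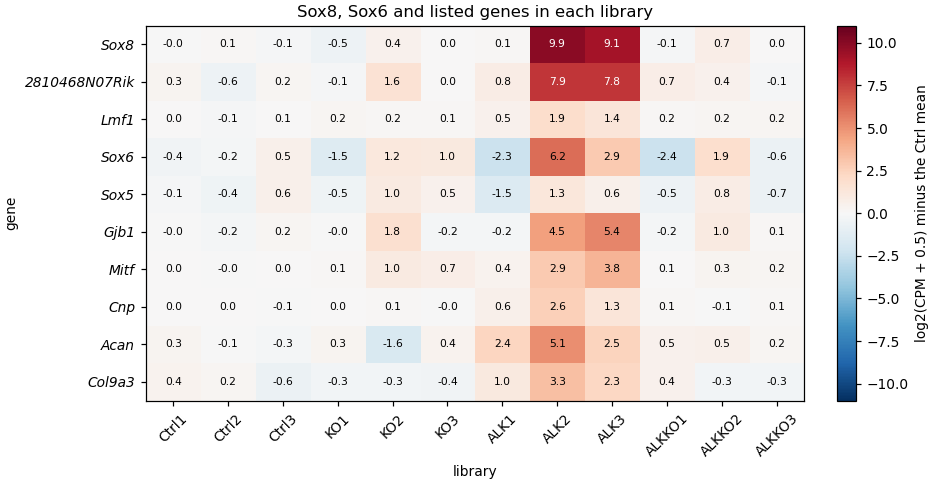
Log2(CPM + 0.5) minus the Ctrl mean, by library, for Sox8, its antisense gene and Lmf1, for Sox6 and Sox5, and for the genes named among glial, melanocyte and cartilage targets that were called higher in ALK against Ctrl. Sox8 is at 9.95 and 9.12 in ALK2 and ALK3 and at 0.14 in ALK1, while Acan and Col9a3 are above 0 in all 3 tumors.

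Gamma delta and innate-like T-cell genes, a program in which Sox13 and Sox4 are known to act, were mostly lower in the tumors. Of 16 genes, 15 were tested, and 10 were called lower and 1 higher in ALK against Ctrl, with the same counts in ALK against ALKKO, beside 20.4% and 19.6% of all genes called. Their median log2 fold change was -4.13 in ALK against Ctrl, beside 0.05 for all genes. Tcrg-C1, a constant gene of the gamma chain, was 28.8 to 43.6 CPM in Ctrl and at most 0.0780 CPM in ALK (log2 fold change -9.22, SE 0.76, adjusted p = 8.1e-05 from edgeR). Tcrg-C4 was 20.03 to 34.9 CPM in Ctrl and at most 1.88 CPM in ALK (log2 fold change -5.19, SE 0.72, adjusted p = 0.00109). Il23r, the interleukin-23 receptor gene, was 0.803 to 1.53 CPM in Ctrl and had 1, 0 and 0 reads in ALK (log2 fold change -5.21, SE 1.02, adjusted p = 0.00483). With a group at 3 reads or fewer per library, the fitted fold changes of Tcrg-C1, Il23r, Cnmd, Cdh19, Tox3 and Gjb1 depend on the prior count and are no bounds. Cd163l1, which encodes the scavenger receptor SCART1 of gamma delta T cells, was 17.03 to 25.2 CPM in ALKKO and at most 0.937 CPM in ALK (log2 fold change -5.51, SE 0.96, adjusted p = 0.0030). The gene called higher was Etv5, an ETS factor, with 74.8, 37.6 and 19.4 CPM in the tumors and 8.35 to 11.03 CPM in Ctrl (log2 fold change 2.15, SE 0.42, adjusted p = 0.004545 from edgeR). Tcrg-C1 has near-identical copies among the gamma constant genes, so its count is uncertain. ALK3, where Sox13 was highest, had 203 CPM of Trdc, within the 125 to 204 CPM of Ctrl, and the other 2 tumors had 7.98 and 10.6 CPM. The gamma constant genes did not share this and were low in every tumor, ALK3 included. Besides Tcrg-C1 and Tcrg-C4 above, Tcrg-C2 was at most 4.63 CPM in ALK, against 42.9 to 58.8 CPM in Ctrl. Trdc, Tcrg-C2 and Etv5 were named after their values were seen.

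SOX proteins share the HMG box with TCF and LEF factors and bind beta-catenin. Of 11 other sequence-specific HMG-box genes, all were tested, and 1 was called higher and 1 lower in ALK against Ctrl and in ALK against ALKKO, a share near the 20.4% and 19.6% of all genes. Lef1 was 1484, 1466 and 341 CPM in the tumors and 343.8 to 383 CPM in Ctrl, so that ALK3 lay just below the Ctrl mice (log2 fold change 1.58, SE 0.43, adjusted p = 0.02125 from edgeR). The call was lost under 6 of 12 alternatives, among them leaving out ALK1, ALK2 or any 1 Ctrl mouse, with adjusted p of 0.000208 to 0.0791. Tox3 was 4.25 to 5.70 CPM in Ctrl and 0.0671, 0 and 0 CPM in the tumors, or 1 read in all (log2 fold change -7.19, SE 0.73, adjusted p = 0.00029 from edgeR). Of 16 Wnt target genes, 12 were tested, and 5 were called higher and 1 lower in ALK against both groups (20.4% and 19.6% of all genes were called), with a median log2 fold change of 1.11 against Ctrl. Lef1 is 1 of the 5. Apcdd1 was 33.1, 103 and 90.5 CPM in the tumors and 5.73 to 8.78 CPM in Ctrl (log2 fold change 3.315, SE 0.39, adjusted p = 0.000523). Nkd1 was 44.7, 27.1 and 9.76 CPM in the tumors and 2.20 to 4.20 CPM in Ctrl (log2 fold change 3.10, SE 0.57, adjusted p = 0.0037). Both encode Wnt inhibitors. Myc, the proliferation factor, was 244, 276 and 216 CPM in the tumors and 69.7 to 77.3 CPM in Ctrl (log2 fold change 1.725, SE 0.21, adjusted p = 0.000553). Znrf3, a relative of Rnf43, was 60.3, 54.3 and 92.0 CPM in the tumors and 29.4 to 37.8 CPM in Ctrl (log2 fold change 1.01, SE 0.23, adjusted p = 0.0102). Rnf43, which encodes a ligase that removes Wnt receptors, fell to 0.738, 0.523 and 2.26 CPM from 8.82 to 12.8 CPM in Ctrl (log2 fold change -3.13, SE 0.50, adjusted p = 0.00195). Axin2, the most general Wnt target, was 26.4, 19.5 and 43.5 CPM in the tumors and 44.6 to 55.3 CPM in Ctrl (log2 fold change -0.71, SE 0.30, adjusted p = 0.0967 from edgeR). Axin2, Myc and Znrf3 were named after their values were seen.

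Of 15 SOX cofactors, which include corepressors, acetyltransferases and nuclear transport receptors, 14 were tested. Tle4, a Groucho corepressor, was the only gene called in ALK against both groups, beside 20.4% and 19.6% of all genes, with 1.68, 8.53 and 15.8 CPM in the tumors and 37.1 to 45.2 CPM in Ctrl (log2 fold change -2.28, SE 0.60, adjusted p = 0.0183 from edgeR). Against Ctrl its call was lost without ALK2 and in a fit of only the 2 groups, with adjusted p of 0.000609 to 0.0655 over the alternatives. Against ALKKO it was lost in the same 2 settings and also without ALKKO1 and without ALKKO2, with adjusted p of 0.00186 to 0.0953. No gene of these 7 lists was called by edgeR over all 12 libraries in the 3 comparisons among thymocytes. In a fit of only ALKKO and Ctrl, edgeR called 2 of them. DESeq2 called 1 in KO against Ctrl and 1 in ALKKO against Ctrl, Cdh19 in both.

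The 3 genes most like each SOX gene were ranked by Pearson's r of log2(CPM + 0.5) over the 12 libraries, which share their depth and the contrast of tumor and thymus. For Sox8 these were Elmod2, Dpp4 and Zmynd11 (r = 0.99 for each). Dpp4, the peptidase CD26, was 1802 and 1911 CPM in ALK2 and ALK3, 148 CPM in ALK1 and 107 to 148 CPM in the thymus. For Sox6 they were Gja1, Rab9 and Klhl2 (r = 0.97, 0.94 and 0.94). Gja1, which encodes connexin 43, was 401 CPM in ALK2, 85.2 CPM in ALK3 and 10.8 to 67.8 CPM elsewhere. For Sox9 they were S100a14, Zfp874b and Ap1m2 (r = 0.99 for each). S100a14 and Ap1m2 are genes of epithelia. S100a14 was 18.0 to 20.2 CPM in Ctrl, 1.80 CPM in KO2 and 0.0671, 0.261 and 7.26 CPM in the tumors. For Sox4 they were Arid2, Msrb2 and Zc3h12b (r = 0.92 to 0.94), and for Sox5 Ift43, Fzd1 and Acyp2 (r = 0.94 to 0.95). For Sox12 they were Mroh1, Kazn and Sord (r = 0.94 for each), and for Sox13 Wipf3, Brd1 and F3 (r = 0.92 to 0.93). Sord was 101 CPM in ALK1 and 22.5 CPM in ALK2, the tumors with the highest and lowest Sox12, while Wipf3 was 68.1 CPM in ALK3 and at most 13.8 CPM elsewhere. With pseudocounts of 0.1 and 1, 1 to 3 of the 3 genes were kept for each SOX gene.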

How the data were processed

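The authors trimmed single-end reads of stranded poly(A) libraries, aligned them to mm10 with STAR and deposited raw HTSeq counts per gene, without normalization. Tool versions other than Picard 2.19.2, the annotation release and the strand setting of the counting are not given in the sources used here. Between 39.2% and 51.8% of alignments per library were not unique and entered no gene's count, nor did the 1.38% to 2.83% on several genes. Of 50600 gene rows, 50376 were matched to GENCODE M21 on GRCm38. Groups, replicate numbers, sexes and ages (19 to 31 wk) come from the labels. The members and the gene lists were chosen with earlier results of these data known.

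The counts as deposited went into edgeR (version 4.0.16, under R 4.3.3; TMM factors 0.913 to 1.06, filterByExpr, robust glmQLFit and glmQLFTest, 1 term per group over 12 libraries, Benjamini-Hochberg adjustment over 16052 genes). SE were derived from the F statistic. Its spread per gene was fitted over all 12 libraries, so SE among thymus groups include the spread of the tumors. Calls needed both an adjusted p below 0.05 and a log2 fold change beyond 1 in either direction. All 8 members were named. Of each list the 3 called genes with the largest change in a comparison were named, besides every other SOX gene with 1 CPM in a library, the 3 genes most like each member and the nearest tested protein-coding genes. 2810468N07Rik, Tyrp1, Dct, Pmel, S100b, Col2a1, Dcn, Krt14, Cldn4, Trdc, Tcrg-C2, Etv5, Axin2, Myc, Znrf3 and the SOX genes without reads were named outside this rule. A floor of 3 counts was 0.158 to 0.261 CPM and covers counting error only, since reads carried no molecular identifiers. In simulated counts with 200 of 15776 genes changed in ALK, 55% of 4-fold and 73% of 8-fold changes were recovered in ALK against Ctrl, with 4 other calls. No gene was changed between the thymus groups of these simulated counts. There edgeR called 0 and DESeq2 37, 26 and 27 genes in KO against Ctrl, ALKKO against Ctrl and ALKKO against KO. Each gene was simulated with the same spread in every group, estimated over all 12 libraries with the tumors. Alternatives were DESeq2 1.42.0 (Wald test, size factors), no filter, the replicate number as a block, sex as a covariate, only the groups compared, each library left out, other pseudocounts for likeness and the longest transcript as length. Methylation data of the study were not analysed here, and 1 gene that is counted in a list is not reported here.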

Additional observations from a re-analysis of the deposited data

How the results depend on the processing

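Members: of 416 refits of a log2 fold change, 399 moved by less than 1 SD between mice, a spread that is wide in the tumors. No called value changed sign, but Sox8 was the only member called. In ALK against Ctrl the sign of Sox4 changed in 7 of 12 refits and those of Sox5, Sox12 and Sox13 in 1 of 12 each. Sox8 was called in ALK against Ctrl and against ALKKO in every refit that tested it. The members were chosen on these values, and Sox8 passed the filter through libraries that include ALK2 and ALK3. Calls of members thus describe the data and lend no support. The number of members called in ALK against Ctrl was 3 with DESeq2's Wald test (Sox8, Sox6 and Sox9), 0 in a fit of only the 2 groups, where Sox8 did not pass the filter, and 1 to 2 without 1 library. In ALK against ALKKO it was 3 with DESeq2 and 1 to 2 without 1 library. Without ALK1 Sox6 was called in both comparisons, without ALK3 Sox9 was (log2 fold change -5.36 against Ctrl), and without ALK2 Sox12 was in ALK against ALKKO.

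Genes called: DESeq2 gave 42 in KO against Ctrl, 98 in ALKKO against Ctrl and 24 in ALKKO against KO, in place of 3, 29 and 1. In simulated counts with no gene changed between these groups it called 37, 26 and 27. The simulated spread included that of the tumors, so these counts do not measure false calls in the thymus data. Fits of only the 2 groups gave 0 in KO against Ctrl, 98 in ALKKO against Ctrl and, in place of 3145, 2049 in ALK against ALKKO. Leaving out 1 library gave 2130 to 3748 genes in ALK against Ctrl (2130 without Ctrl1), 0 to 3 in KO against Ctrl (0 without Ctrl3), 5 to 9 in ALKKO against Ctrl, 1 in ALKKO against KO and 2251 to 3719 in ALK against ALKKO. Genes of the lists called in ALKKO against Ctrl were 1 with DESeq2 and 2 in the fit of only the 2 groups, and 1 in KO against Ctrl with DESeq2. With the replicate block, 2911, 0, 5, 1 and 2778 genes were called in ALK against Ctrl, KO against Ctrl, ALKKO against Ctrl, ALKKO against KO and ALK against ALKKO, and Sox8 stayed the only member called. Deviations from the group mean had r of -0.13 to 0.44 between libraries with the same number and -0.46 to 0.24 between other libraries. The highest r was that of KO1 and ALKKO1. Whether the numbers pair the samples cannot be told from these values, and the main fit did not pair them. The causes of these changes were not tested, apart from the filter on Sox8. Of 1187 refits of named list genes with an adjusted p, 1155 kept their call, 25 lost and 7 gained it. DESeq2 gave Acan no adjusted p.

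Per length, the longest transcript in place of all exons raised Sox5 from 0.162 to 0.322 and Sox6 from 0.305 to 0.523 CPM per kilobase in Ctrl and kept their order there. In ALK it put Sox5 (0.460) before Sox10 (0.346) and Sox9 (0.236). With 12473857 to 18864327 reads, the thymus values of Sox8 and Sox10 rest on 18 reads or fewer per library.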

Other observations

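The 16 tested protein-coding genes nearest to the SOX genes on either side were read by the same edgeR test. In ALK against Ctrl 3 were called higher (Lmf1 among them), 2 lower and 11 not, beside 20.4% of all genes called. Dcdc2a, 3738.2 kb to the left of Sox4, was 0.264 to 0.646 CPM in Ctrl and had 0 reads in all 3 tumors (adjusted p = 0.0105), while Sox4 was 239 to 413 CPM in them. Bcat1, a branched-chain amino acid transaminase gene 211.9 kb to the right of Sox5, was 65.5, 85.2 and 15.8 CPM in the tumors and 4.95 to 12.6 CPM in Ctrl (log2 fold change 2.61, SE 0.59, adjusted p = 0.00901 in ALK against Ctrl). Calcb, 747.5 kb to the left of Sox6, was 5.09 to 8.99 CPM in Ctrl and at most 0.156 CPM in the tumors (log2 fold change -5.83, SE 0.82, adjusted p = 0.00112). Every tumor was under the floor of 3 counts for Calcb, so its fitted fold change depends on the prior count and is no bound. Polr2f, a shared subunit of the RNA polymerases 3.1 kb to the left of Sox10, was 55.6, 81.9 and 103 CPM in the tumors and 24.3 to 29.6 CPM in Ctrl (log2 fold change 1.55, SE 0.22, adjusted p = 0.00111), and it was higher in ALK1 and ALK2 too, where Sox10 had 0 reads. Plekha6, 78.9 kb to the left of Sox13, was 4.09, 11.2 and 45.4 CPM in the tumors, highest in ALK3 like Sox13 (log2 fold change 1.60, SE 0.74, adjusted p = 0.127). Zcchc3, 13.9 kb to the right of Sox12, was 9.53, 0.261 and 1.40 CPM in the tumors and 2.75 to 4.66 CPM in Ctrl, in the order of ALK1, ALK3 and ALK2 that Sox12 also had (log2 fold change -0.08, SE 0.89, adjusted p = 0.957). Kcnj2, 1705.4 kb to the left of Sox9, was 0.335, 3.57 and 18.4 CPM in the tumors and 4.07 to 4.38 CPM in Ctrl (log2 fold change 0.82, SE 0.92, adjusted p = 0.527). Of the others, Etnk1, 596.1 kb to the left of Sox5, had a log2 fold change of -0.71 (adjusted p = 0.00209), 1110004F10Rik, 0.6 kb to the right of Sox6, of 0.65 (adjusted p = 0.00462), Pick1, 63.9 kb to the right of Sox10, of 0.96 (adjusted p = 0.0208) and Cdkal1, to the right of Sox4, of 0.47 (adjusted p = 0.0478), all short of the fold threshold. Slc39a11 beside Sox9 (0.35, adjusted p = 0.346), Trib3 beside Sox12 (-0.84, adjusted p = 0.296), Snrpe beside Sox13 (0.41, adjusted p = 0.121) and Cacna1h beside Sox8 (0.52, adjusted p = 0.676) did not pass the test.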
